A study of Danio rerio with 12 samples.

Results

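The Krüppel-like (klf), early growth response (egr), spalt-like (sall), gli, Ikaros (ikzf), zic and snail (snai) genes encode transcription factors that bind DNA through C2H2-type zinc fingers (C2H2-ZF). Members were taken by name, as genes whose zebrafish symbol begins with one of these stems (gli only when a digit follows) and that had more than 1 CPM (counts scaled to the library total) in at least 3 of the 12 libraries. The names fitted 51 of the 25432 genes in the count tables, and 40 of them passed, among 15829 genes tested in all. They comprised 18 klf, 6 zic, 4 sall, 4 gli, 4 snai, 3 ikzf genes and 1 egr gene. Of the 40, 23 would have passed through either stage, 12 passed only through the 6 h post fertilization (hpf) libraries and 5 only through the 1 hpf libraries, so that differences between stages among these 17 were partly a condition of entry. Those that passed only through 1 hpf were klf12 (ENSDARG00000015312), klf7 (ENSDARG00000073857), egr3, gli3 and snai3. Klf2a, klf4, klf13, both klf5 genes, sall3, sall3b, both zic2 genes, zic4 and snai1b were among those that passed only through 6 hpf. For all of these, the adjusted p of a change between stages is a description.

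RNA was measured in pools of whole zebrafish embryos of 2 genotypes. MZznf598 embryos came from crosses of homozygous znf598 males and females and lack maternal and zygotic Znf598, an E3 ubiquitin ligase for collided ribosomes, through a frameshifting deletion in the first exon. The reference was wild type of the AB strain. Both were collected at 6 hpf, after the maternal-to-zygotic transition (MZT), and at 1 hpf, before it, with 3 libraries of ribosomal RNA-depleted total RNA for each of the 4 groups and no treatment. The mutant is a single allele with its own parents, so genotype and parental background cannot be told apart. The labels do not say whether the 3 libraries of a group came from separate clutches, so p-values measure the spread between these libraries, which may be technical.

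These factors read out and shape the early axes of the vertebrate embryo. Gli proteins are the transcriptional endpoint of Hedgehog signaling, Zic proteins act in the neural plate, Sall proteins in limb, neural and stem cell contexts, and Snail proteins repress cadherin genes while mesodermal and neural crest cells leave an epithelium. Klf proteins bind GC-rich promoter elements and act in epidermis, blood vessels and blood, Ikaros proteins are best known in lymphoid cells, and Egr proteins are immediate early factors. In zebrafish, klf17 was formerly called klf4b and acts in the hatching gland. Messenger RNA in the 1 hpf embryo was loaded by the mother, whereas at 6 hpf the zygotic genome is being transcribed.

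Names limit what can be said of single paralogs. Symbols came from a table of gene identifiers in which 12 of the 40 members share a symbol with another gene of the rule, and the a and b copies of klf5, klf7, klf11, klf12, gli2, sall1 and zic2 could not be assigned to their identifiers, so these genes are given with the identifier. The 11 genes that fitted by name but stayed under the level limit were egr1, egr2, egr2a, egr4, ikzf1, klf1, klf15, sall2, zic6 and the second copies of klf12 and sall1. Of these, egr1 had 3 counts and egr4 had 2 counts over all 12 libraries together, and sall2 exceeded 1 CPM in 2 libraries.

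Library totals ran from 7144704 to 12162660 counts. Levels below are CPM with TMM scaling (edgeR's trimmed mean of M values), and because a longer transcript yields more counts, levels were not compared between genes. The znf598 transcript was at 3.45 to 10.5 CPM in the 6 MZznf598 libraries and at 62.6 to 142 CPM in the 6 wild-type libraries, with log2 fold changes of -3.31 at 6 hpf and -5.21 at 1 hpf (edgeR adjusted p = 1.45e-06 and 3.67e-08). The third wild-type library stood apart at both stages. Its counts differed from those of the other wild-type libraries by 15.1 to 21.3 times the Poisson variance, against 2.74 to 5.47 times for all other replicate pairs. Among the 40 members, it lay more than 1.5-fold from both of its replicates in 11 genes at 6 hpf and in 10 at 1 hpf (27.5% and 25%, against 19.3% and 13% of all genes tested), while every other library did so in 0 to 3 members. Results that rest on it are therefore given with and without both wild-type libraries numbered 3, a comparison chosen after seeing the data.

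**Figure D1:**
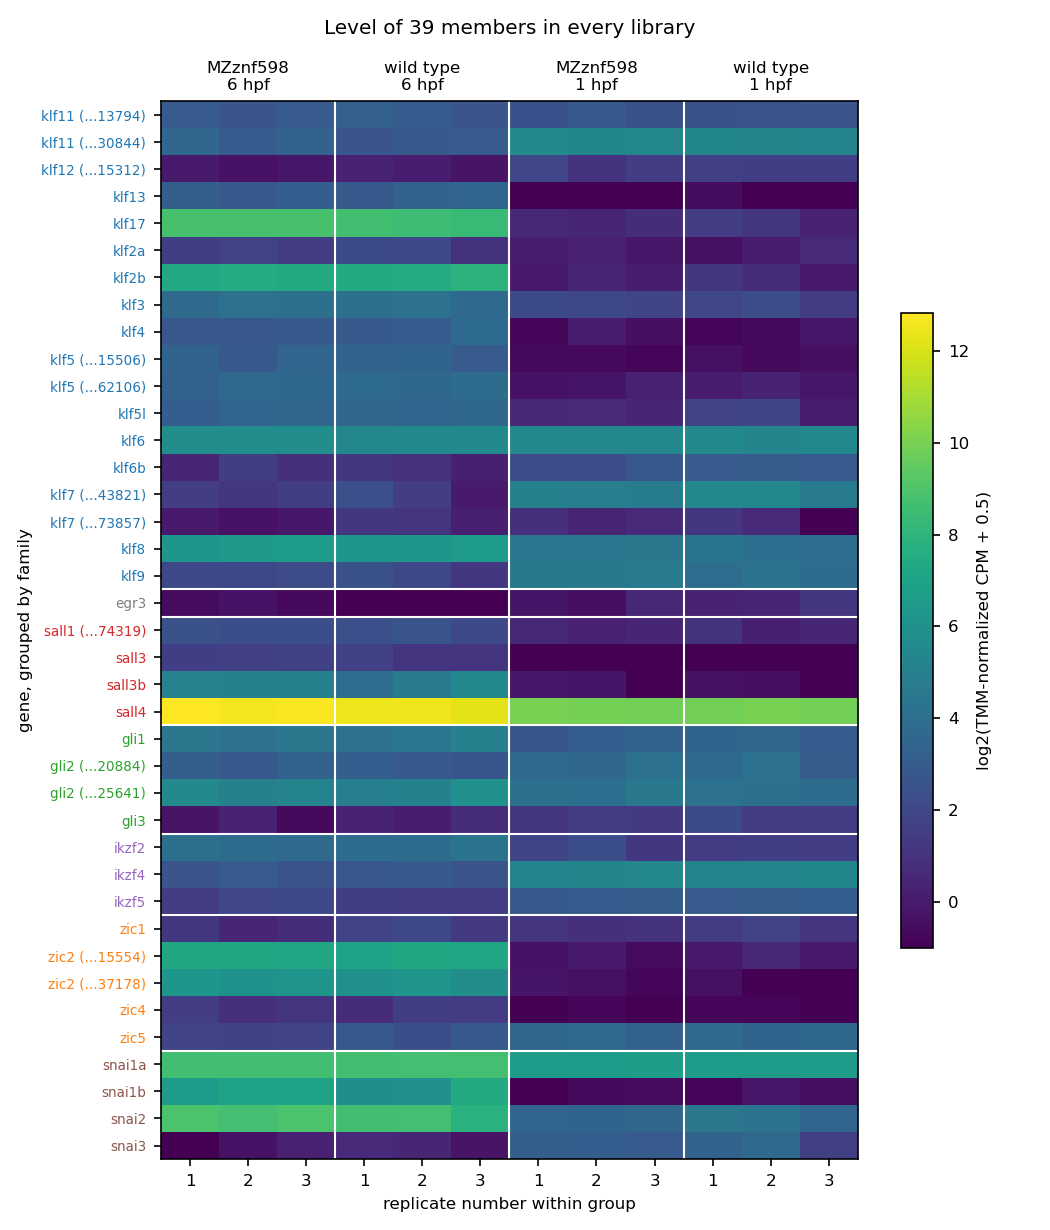
Heat map of log2(TMM-normalized CPM + 0.5) for 39 members (rows, grouped and colored by family) in the 12 libraries (columns, MZznf598 left of wild type at each stage, replicates 1 to 3). Sall4, snai1a, snai2, klf17 and others are brighter in the 6 hpf columns on the left, ikzf4, klf9 and some further klf rows are brighter in the 1 hpf columns on the right, and the 2 genotypes look alike within a stage.

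The change across the MZT was examined first. In MZznf598, 25 of the 40 members rose and 10 fell between the stages (edgeR quasi-likelihood test, Benjamini-Hochberg adjusted p below 0.01 over all genes), where 36.3% of all genes tested rose and 33.7% fell (70.0% in either direction). In wild type, 24 rose and 11 fell, where 36.5% and 33.9% of all genes did (70.4%). The 3 libraries of the 2 stages did not overlap in 37 members in MZznf598 (25 above and 12 below, where 42.7% and 42.3% of all genes lay above and below, 84.9% together) and in 35 in wild type (24 and 11, where 39.1% and 38.2% did, 77.4% together). The median log2 fold change, 6 over 1 hpf, was 2.09 in MZznf598 and 2.17 in wild type over the members, against -0.01 and -0.02 over all genes tested, and with genes at the floor of detection set to their bound the medians stayed at 2.09 and 2.17. With relative log expression (RLE) factors in place of TMM, the median of all genes moved to 0.13 in MZznf598 and 0.12 in wild type and that of the members to 2.23 and 2.31, with the same counts of calls. By the wild-type change, 24 members were zygotic (more than 2-fold higher at 6 hpf), 10 maternal (more than 2-fold lower) and 6 maternal-zygotic, that is 60%, 25% and 15%, where all genes tested divided into 29%, 28.4% and 42.7%. Because 17 members passed the level limit through only one stage, these shares are a description.

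The call was the same in both genotypes for 38 of the 40 members, and for 88.4% of all genes tested. The exceptions, named after their values were seen, were klf6 and egr3. Klf6 was at 57.2, 53.7 and 54.2 CPM at 6 hpf against 45.6, 42.2 and 42.8 CPM at 1 hpf in MZznf598 (log2 fold change 0.34, SE 0.10, adjusted p = 0.00567). In wild type klf6 was at 42.1, 47.1 and 48.2 CPM against 46.2, 39.3 and 43.3 CPM (0.09, adjusted p = 0.393). The MZznf598 call was lost without a level filter (edgeR adjusted p = 0.0704) and when replicate number was a block (adjusted p = 0.0136). It was also lost without any single MZznf598 library (adjusted p 0.0104 to 0.0334) and without wild-type replicate 2 at 6 hpf (adjusted p = 0.0126). The difference between the changes of klf6 in the 2 genotypes did not pass (interaction 0.25, adjusted p = 0.580). Across the 40 genes, the changes in the 2 genotypes had a Pearson correlation of 0.962 and a Spearman correlation of 0.965, given as a description over genes measured in the same 12 libraries. Over all genes tested both correlations were 0.958, so this agreement was not particular to the members.

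**Figure D2:**
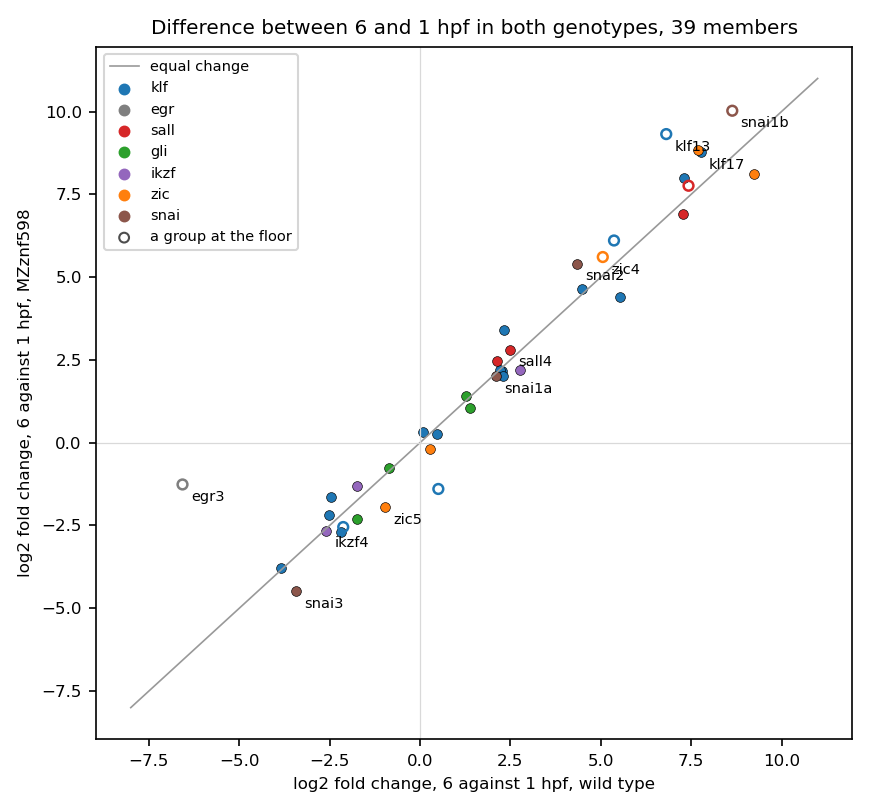
Log2 fold change from 1 to 6 hpf (6 over 1 hpf) in MZznf598 (vertical axis) against that in wild type (horizontal axis) for 39 members, colored by family, with the line of equal change. Open circles have a group at 3 counts or fewer in every library, where the fitted value is no bound. Most points lie near the line, from klf7 (ENSDARG00000043821) and snai3 at the lower left to snai1b at the upper right, and egr3 lies farthest from it.

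Among the zic genes, 4 of 6 rose and 1 fell in each genotype. Over all genes tested, 36.3% rose and 33.7% fell in MZznf598, and 36.5% rose and 33.9% fell in wild type. Both zic2 genes and zic4 passed the level limit only through 6 hpf, so their rise was partly a condition of entry. Both zic2 genes, which act in forebrain and neural plate development, rose. The zic2 copy ENSDARG00000015554 was at 159.7, 152 and 141 CPM in MZznf598 and 126, 151 and 142 CPM in wild type at 6 hpf, and at 0.160 to 0.489 CPM in MZznf598 and 0.460 to 1.01 CPM in wild type at 1 hpf. The other copy, ENSDARG00000037178, was at 69.7 to 76.5 CPM in MZznf598 and 57.2 to 73.3 CPM in wild type at 6 hpf, with at most 0.359 CPM in any 1 hpf library. Zic4 rose at least 7.41-fold in MZznf598 and at least 8.03-fold in wild type, as its 1 hpf libraries held 3 counts or fewer (the floor of detection, 0.241 CPM in MZznf598 and 0.245 CPM in wild type for the shallowest library).

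Zic5 and zic1 differed from these. Zic5 (ENSDARG00000016022), already present at 1 hpf, was at 2.99, 2.77 and 2.99 CPM at 6 hpf against 11.5, 12.7 and 9.47 CPM at 1 hpf in MZznf598, and at 6.45, 4.50 and 7.10 CPM against 13.2, 10.6 and 11.6 CPM in wild type. It fell in both, with log2 fold changes of -1.94 in MZznf598 (SE 0.22, adjusted p = 2.43e-06) and -0.98 in wild type (SE 0.20, adjusted p = 0.000536). Zic1 (ENSDARG00000015567) was not called in either genotype (-0.19 in MZznf598, adjusted p = 0.657, and 0.29 in wild type, adjusted p = 0.426). In the RefSeq annotation (assembly GRCz12tu), zic1 and zic4 are neighbors, as are zic5 and zic2a. Of these neighbors, zic4 was called as rising and zic1 was not called. Zic4 passed the level limit only through 6 hpf, so its rise was partly a condition of entry. The difference between their changes was not tested.

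All 4 sall genes rose in both genotypes, where 36.3% of all genes tested rose in MZznf598 and 36.5% in wild type. Sall3 and sall3b passed the level limit only through 6 hpf, so their rise was partly a condition of entry. Sall4 (ENSDARG00000044485), a factor of pluripotent and early embryonic cells in mammals, was present in quantity before the MZT. It was at 7317, 6489 and 7028 CPM at 6 hpf in MZznf598 and at 5643, 6011 and 4849.8 CPM in wild type, and at 1022, 1001 and 948 CPM at 1 hpf in MZznf598 and 964, 1039.5 and 934 CPM in wild type. The change was 2.81 on the log2 scale in MZznf598 and 2.49 in wild type (SE 0.09 each, adjusted p = 1.23e-11 and 3.16e-11).

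The other sall genes, related to Drosophila spalt, were low or undetected at 1 hpf. Sall3b (ENSDARG00000057586) was at 34.3, 32.7 and 33.8 CPM in MZznf598 at 6 hpf, whereas the wild-type libraries spread from 15.01 through 24.6 to 43.0 CPM, the last being the library that stood apart. Sall3 (ENSDARG00000079613) had no count in any of the 6 libraries at 1 hpf and was at 2.495, 2.63 and 2.71 CPM in MZznf598 and 2.77, 1.72 and 1.69 CPM in wild type at 6 hpf, at least 10.8-fold higher in MZznf598 and 8.41-fold higher in wild type. Sall1 (ENSDARG00000074319) was at 4.52 to 4.99 CPM in MZznf598 and 3.72 to 5.56 CPM in wild type at 6 hpf, against 0.698 to 0.934 CPM in MZznf598 and 0.676 to 1.58 CPM in wild type at 1 hpf, with changes of 2.47 and 2.14 (adjusted p = 1.44e-05 and 3.95e-05).

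Of the 4 snail genes, 3 rose and snai3 fell in both genotypes. Over all genes tested, 36.3% rose and 33.7% fell in MZznf598, and 36.5% rose and 33.9% fell in wild type. Snai1a (ENSDARG00000056995), which acts in mesodermal cell movement in zebrafish, had the smallest standard error of all members. It was at 406, 395 and 395 CPM in MZznf598 and 403, 417 and 420.5 CPM in wild type at 6 hpf, and at 96.8, 98.8 and 103 CPM in MZznf598 and 95.2, 98.4 and 97.6 CPM in wild type at 1 hpf (changes of 2.002 in MZznf598 and 2.09 in wild type, SE 0.06 each). The 95% interval of its genotype difference ran from -0.19 to 0.08 on the log2 scale at 6 hpf and from -0.10 to 0.17 at 1 hpf.

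Snai1b (ENSDARG00000046019), its duplicate, was at 98.2, 124 and 123 CPM in MZznf598 and 59.0, 62.5 and 177 CPM in wild type at 6 hpf, with at most 0.405 CPM at 1 hpf, so that the high wild-type value came from the library that stood apart. It was at least 478-fold higher at 6 than at 1 hpf in MZznf598 and rose by 8.64 on the log2 scale in wild type (SE 0.60, adjusted p = 1.63e-08). Snai1b passed the level limit only through 6 hpf, so its rise was partly a condition of entry. Snai2 (ENSDARG00000040046), known from neural crest, was at 488, 419.7 and 482 CPM in MZznf598 and 406, 423 and 226 CPM in wild type at 6 hpf, and at 10.8, 10.5 and 11.4 CPM in MZznf598 and 21.7, 18.7 and 11.02 CPM in wild type at 1 hpf. Here the third wild-type library was the lowest of its group at both stages.

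Snai3 (ENSDARG00000031243) ran the other way, at 0, 0.292 and 0.713 CPM at 6 hpf against 8.76, 8.17 and 7.38 CPM at 1 hpf in MZznf598, and at 1.05, 0.927 and 0.338 CPM against 10.2, 13.2 and 2.61 CPM in wild type (changes of -4.49 in MZznf598 and -3.43 in wild type, adjusted p = 7.13e-05 and 0.000189). Snai3 passed the level limit only through 1 hpf, so its fall was partly a condition of entry. Among the genes of a related list (zeb and scrt repressors, twist genes and the cadherins cdh1 and cdh2), 6 of 13 listed were tested, of which 5 rose and 1 fell in either genotype. Those that rose included cdh2, the neural cadherin (5.03 in MZznf598 and 5.50 in wild type). Also among them were the epithelial-mesenchymal repressors zeb1a (3.21 in MZznf598 and 2.44 in wild type) and zeb2 (ENSDARG00000078416, 3.95 in MZznf598 and 3.70 in wild type). The gene that fell was zeb2a. It was at 0.166, 0.583 and 0.713 CPM at 6 hpf against 2.37, 2.58 and 2.25 CPM at 1 hpf in MZznf598. In wild type zeb2a was at 0.263, 0 and 0.338 CPM (3 counts or fewer) against 1.90, 1.15 and 1.06 CPM. Cdh1 was higher at 6 hpf, at 1366, 1315 and 1280 CPM in MZznf598 and 1420, 1452 and 1112 CPM in wild type. At 1 hpf cdh1 was at 785, 764 and 728 CPM in MZznf598 and 716, 714 and 783 CPM in wild type. Over all genes tested, 36.3% rose and 33.7% fell in MZznf598, and 36.5% rose and 33.9% fell in wild type. None of the list was called between genotypes, where 3.51% of all genes were at 6 hpf and 3.83% at 1 hpf.

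The klf genes moved in both directions. In MZznf598, 11 of 18 rose and 5 fell, and in wild type 10 rose and 5 fell. Over all genes tested, 36.3% rose and 33.7% fell in MZznf598, and 36.5% rose and 33.9% fell in wild type. Klf17 (ENSDARG00000038792) was at 443, 442 and 451 CPM in MZznf598 and 408, 373 and 328 CPM in wild type at 6 hpf, and at 0.934, 0.838 and 1.28 CPM in MZznf598 and 2.36, 1.82 and 0.734 CPM in wild type at 1 hpf (changes of 8.77 in MZznf598 and 7.76 in wild type, adjusted p = 1.9e-12 and 3.1e-12). Klf2b (ENSDARG00000040432), whose family member KLF2 responds to blood flow in vessels, was at 164, 180.3 and 169 CPM in MZznf598 and 175, 182 and 236 CPM in wild type at 6 hpf, and at 0.503, 0.908 and 0.562 CPM in MZznf598 and 1.90, 1.22 and 0.490 CPM in wild type at 1 hpf (changes of 7.99 in MZznf598 and 7.30 in wild type). For both genes, 6 hpf libraries lay far above every 1 hpf library.

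The other klf genes that rose in wild type were klf2a, klf3, klf4, klf5l, klf8, klf13 and both klf5 genes. Leaving out klf13, whose libraries held 3 counts or fewer at 1 hpf and which rose at least 32.1-fold in MZznf598 and at least 38.0-fold in wild type, their fitted changes in wild type ran from 2.21 for klf3 to 5.55 for klf4. The genes that fell were klf9, klf6b, klf11 (ENSDARG00000030844), klf12 (ENSDARG00000015312) and klf7 (ENSDARG00000043821), with wild-type changes between -2.12 and -3.85. Klf2a, klf4, klf13 and both klf5 genes passed the level limit only through 6 hpf. Klf12 (ENSDARG00000015312) passed only through 1 hpf. The changes of the genes that passed through a single stage were partly a condition of entry. Of the klf11 genes, ENSDARG00000030844 fell (-2.17 in MZznf598 and -2.53 in wild type, adjusted p = 1.3e-08 and 3.97e-09), whereas ENSDARG00000013794 was not called (0.26 in MZznf598 and 0.47 in wild type, adjusted p = 0.299 and 0.0625).

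Of the 4 gli genes, effectors of Hedgehog signaling, 2 rose and 1 fell in each genotype. Over all genes tested, 36.3% rose and 33.7% fell in MZznf598, and 36.5% rose and 33.9% fell in wild type. Gli1 (ENSDARG00000101244), itself a Hedgehog target in many tissues, rose to 21.8, 18.4 and 22.2 CPM at 6 hpf against 6.03, 8.17 and 9.31 CPM at 1 hpf in MZznf598, and to 17.9, 21.0 and 31.8 CPM against 10.4, 11.4 and 7.51 CPM in wild type (changes of 1.41 in MZznf598 and 1.26 in wild type, adjusted p = 0.000108 and 0.000235). The gli2 copy ENSDARG00000025641 rose to 45.6, 32.5 and 35.9 CPM against 16.7, 15.9 and 23.1 CPM in MZznf598 and to 30.2, 33.4 and 63.8 CPM against 17.4, 16.8 and 14.5 CPM in wild type (1.04 in MZznf598 and 1.37 in wild type, adjusted p = 0.00213 and 0.000238). Its call in MZznf598 was lost without MZznf598 replicate 1 at 6 hpf (adjusted p = 0.0175) and without MZznf598 replicate 1 or 2 at 1 hpf (adjusted p = 0.0109 and 0.0118). In both genes, the third wild-type library at 6 hpf was the highest.

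The other gli2 copy, ENSDARG00000020884, had values of 8.48, 6.42 and 9.27 CPM at 6 hpf against 12.9, 11.2 and 17.3 CPM at 1 hpf in MZznf598, and of 8.17, 7.15 and 5.92 CPM against 12.7, 17.6 and 7.997 CPM in wild type. It was not called (-0.78 in MZznf598 and -0.85 in wild type, adjusted p = 0.0208 and 0.0136), but with replicate number as a block it passed as lower in MZznf598 (-0.78, adjusted p = 0.00438) and in wild type (-0.82, adjusted p = 0.00357). It also passed as lower without both wild-type libraries numbered 3 (-0.78 in MZznf598 and -0.98 in wild type, edgeR adjusted p = 0.00245 and 0.00178). The same held in both genotypes without a level filter and at an adjusted p below 0.05. With RLE factors, DESeq2 or a limit of 2 CPM it stayed uncalled. Gli3 (ENSDARG00000052131), mainly a repressor, was at 0.333, 0.729 and 0.143 CPM at 6 hpf against 1.80, 2.16 and 2.09 CPM at 1 hpf in MZznf598 and at 0.790, 0.529 and 1.18 CPM against 3.87, 2.30 and 2.12 CPM in wild type. It fell in both (-2.29, adjusted p = 0.000955, and -1.75, adjusted p = 0.00216), though in wild type not without replicate 1 at 1 hpf (adjusted p = 0.0114) or replicate 2 at 6 hpf (adjusted p = 0.0143). Gli3 passed the level limit only through 1 hpf, so its fall was partly a condition of entry.

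Other genes of the Hedgehog pathway were taken as a list of 19, of which 16 symbols were found and 14 genes were tested. In each genotype 9 rose and 4 fell across the MZT, with ptch1 called only in wild type and sufu only in MZznf598, a difference that was not called in the interaction. Over all genes tested, 36.3% rose and 33.7% fell in MZznf598, and 36.5% rose and 33.9% fell in wild type. The transducer smo was at 261, 265 and 254 CPM in MZznf598 and 200.1, 239 and 301 CPM in wild type at 6 hpf, against 3.77 to 8.80 CPM in MZznf598 and 2.61 to 4.66 CPM in wild type at 1 hpf, with changes of 5.54 in MZznf598 and 5.94 in wild type. The coreceptor gene gas1 with the identifier ENSDARG00000077298 rose by 3.95 in MZznf598 and 4.45 in wild type, and stk36, a kinase of the pathway, fell (-3.33 in MZznf598 and -3.11 in wild type). The Hedgehog ligands ihha and ihhb were below the level limit, and shha, shhb and dhh were not found by symbol and were not analysed here.

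The Ikaros genes divided by gene in the same way in both genotypes. Ikzf4 (ENSDARG00000037068) was at 5.82, 7.29 and 5.56 CPM at 6 hpf against 37.8, 39.0 and 41.2 CPM at 1 hpf in MZznf598 and at 6.19, 7.02 and 5.41 CPM against 35.4, 37.2 and 40.7 CPM in wild type (changes of -2.66 in MZznf598 and -2.59 in wild type, adjusted p = 1.46e-09 and 1.68e-09). Ikzf5 (ENSDARG00000056491) was at 2.16, 3.36 and 3.56 CPM against 7.04, 7.68 and 8.10 CPM in MZznf598 and at 2.502, 2.25 and 2.20 CPM against 7.29, 7.90 and 8.41 CPM in wild type (-1.32 in MZznf598 and -1.75 in wild type). Ikzf2 (ENSDARG00000069111), or Helios, rose to 16.8, 14.1 and 13.3 CPM at 6 hpf against 3.16, 4.54 and 1.85 CPM at 1 hpf in MZznf598 and to 14.6, 14.2 and 19.5 CPM against 2.30, 2.43 and 2.37 CPM in wild type (2.20 in MZznf598 and 2.75 in wild type). No library of one stage overlapped the other stage in these 3 genes. Over all genes tested, 84.9% did not overlap between stages in MZznf598 and 77.4% in wild type.

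The single egr gene, egr3 (ENSDARG00000089156), was at the floor in both genotypes at 6 hpf and low at 1 hpf. Egr3 passed the level limit only through 1 hpf, so lower values at 6 hpf were partly a condition of entry. It was at 0.166, 0.292 and 0.143 CPM at 6 hpf against 0.359, 0.209 and 0.963 CPM at 1 hpf in MZznf598 (adjusted p = 0.190), and at 0 in all 3 wild-type libraries at 6 hpf against 0.788, 0.878 and 1.80 CPM at 1 hpf, at least 2.27-fold lower (adjusted p = 0.000695). Both genotypes held 3 counts or fewer per library at 6 hpf, so no fold between them is given, and the difference between the stage changes did not pass (adjusted p = 0.299).

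The effect of the genotype was examined next, at 6 hpf, when zygotic transcripts are present. Of the 40 members, 0 were higher and 0 lower in MZznf598 embryos at an adjusted p below 0.01, where 1.76% of all genes tested were higher and 1.75% lower (3.51% in either direction). At an unadjusted p below 0.05, 4 members were higher and 2 lower, where 11.3% of all genes were higher and 10.9% lower. The median log2 fold change over the members, MZznf598 over wild type, was 0.00 (-0.01 over all genes), with 18 of 40 above 0 (45%, against 48.1% of all genes). In 10 members (25%) the 3 MZznf598 and 3 wild-type libraries did not overlap, 6 above and 4 below, against 28.0% of all genes tested (14.4% above and 13.6% below). Of 320 other tested genes whose symbols begin with znf, zbtb or prdm, 19 were higher (5.94%) and 4 lower (1.25%) at this stage. Their median was 0.17, with 64.7% above 0. The difference between these genes and the members was not tested, and with 40 members 0 calls say little about it. The mutated gene znf598, itself called lower at 6 hpf, fits the symbol rule of the 320 genes.

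Among the members with the lowest p at 6 hpf were zic5, zic1, sall4 and a klf11 gene. For zic5, the 3 MZznf598 libraries lay below the 3 wild-type libraries (2.77 to 2.99 against 4.50 to 7.10 CPM), with a fold change on the log2 scale of -1.03 (SE 0.23, adjusted p = 0.0157). For sall4, the 3 MZznf598 libraries lay above the 3 wild-type libraries (6489 to 7317 against 4849.8 to 6011 CPM), a 1.26-fold difference (0.34 on the log2 scale, SE 0.09, adjusted p = 0.0294). Zic1, at 1.83, 0.875 and 1.28 CPM in MZznf598 and 3.03, 3.44 and 2.03 CPM in wild type, had a value of -1.11 (SE 0.37, adjusted p = 0.0858), and klf11 (ENSDARG00000030844), at 11.1, 7.59 and 9.69 CPM in MZznf598 and 5.79, 6.88 and 7.44 CPM in wild type, one of 0.50 (SE 0.17, adjusted p = 0.0865). Zic1 also lay lower at 1 hpf, at 1.58, 1.40 and 1.52 CPM in MZznf598 against 2.23, 3.04 and 1.71 CPM in wild type (-0.64, SE 0.32, edgeR adjusted p = 0.318). None of these differences passed the threshold.

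These near-threshold values depended on how the test was made. DESeq2 called sall4 as higher and zic5 as lower (adjusted p = 0.00153 and 0.00691), where it called 3.80% of all genes higher and 3.22% lower. Both also passed in edgeR at an adjusted p below 0.05, where 4.29% of all genes were higher and 4.09% lower. Without both wild-type libraries numbered 3, sall4 (0.25) and snai1b (0.92) were called higher and no member lower (edgeR adjusted p = 0.00474 and 0.00039), where 5.60% and 5.83% of all genes were called. For snai1b the remaining values were 98.2, 124 and 123 CPM in MZznf598 against 59.0 and 62.5 CPM in wild type. Zic5 was not called without those libraries. At 6 hpf the third wild-type library was the highest of its group for zic5 and the lowest for sall4. In these bulk samples, fewer cells of a type and less RNA per cell cannot be told apart.

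Markers of embryonic regions were compared between the genotypes at 6 hpf. Summed over 3 genes of the organizer (gsc, chrd and noto), MZznf598 libraries were at 666 to 707 CPM and wild-type libraries at 536 to 563 CPM, and summed over 5 genes of the enveloping layer (krt4, krt5, krt92, cldne and cldnf) MZznf598 libraries were at 1719.9 to 1989.9 CPM and wild-type libraries at 2017 to 2295 CPM. Genes within these 2 lists differed. Chrd (log2 fold change 0.34) and noto (0.28) lay above wild type, while gsc (-0.10) overlapped. Krt5 (-0.68) and krt92 (-0.28) lay below it, while krt4 (-0.15), cldne (0.02) and cldnf (0.03) overlapped. Sums overlapped between MZznf598 and wild-type libraries for 3 mesodermal genes (MZznf598 2466 to 2564 CPM, wild type 2222 to 2497 CPM), 2 endodermal genes (MZznf598 231 to 257 CPM, wild type 216 to 260.2 CPM) and 3 germ cell genes (MZznf598 333 to 378 CPM, wild type 309 to 431 CPM). In the mesodermal list tbx16 (0.15) lay above wild type without overlap. Tbxta, mespaa and the endodermal and germ cell genes overlapped. Over all genes tested, 28.0% did not overlap between the genotypes at this stage. No gene of these lists was called between the genotypes at 6 hpf, where 3.51% of all genes tested were. The part of these markers in the values of sall4 or zic5 was not tested. At 1 hpf the organizer, endodermal, mesodermal and enveloping layer sums were at most 1.96 CPM in every library.

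**Figure D3:**
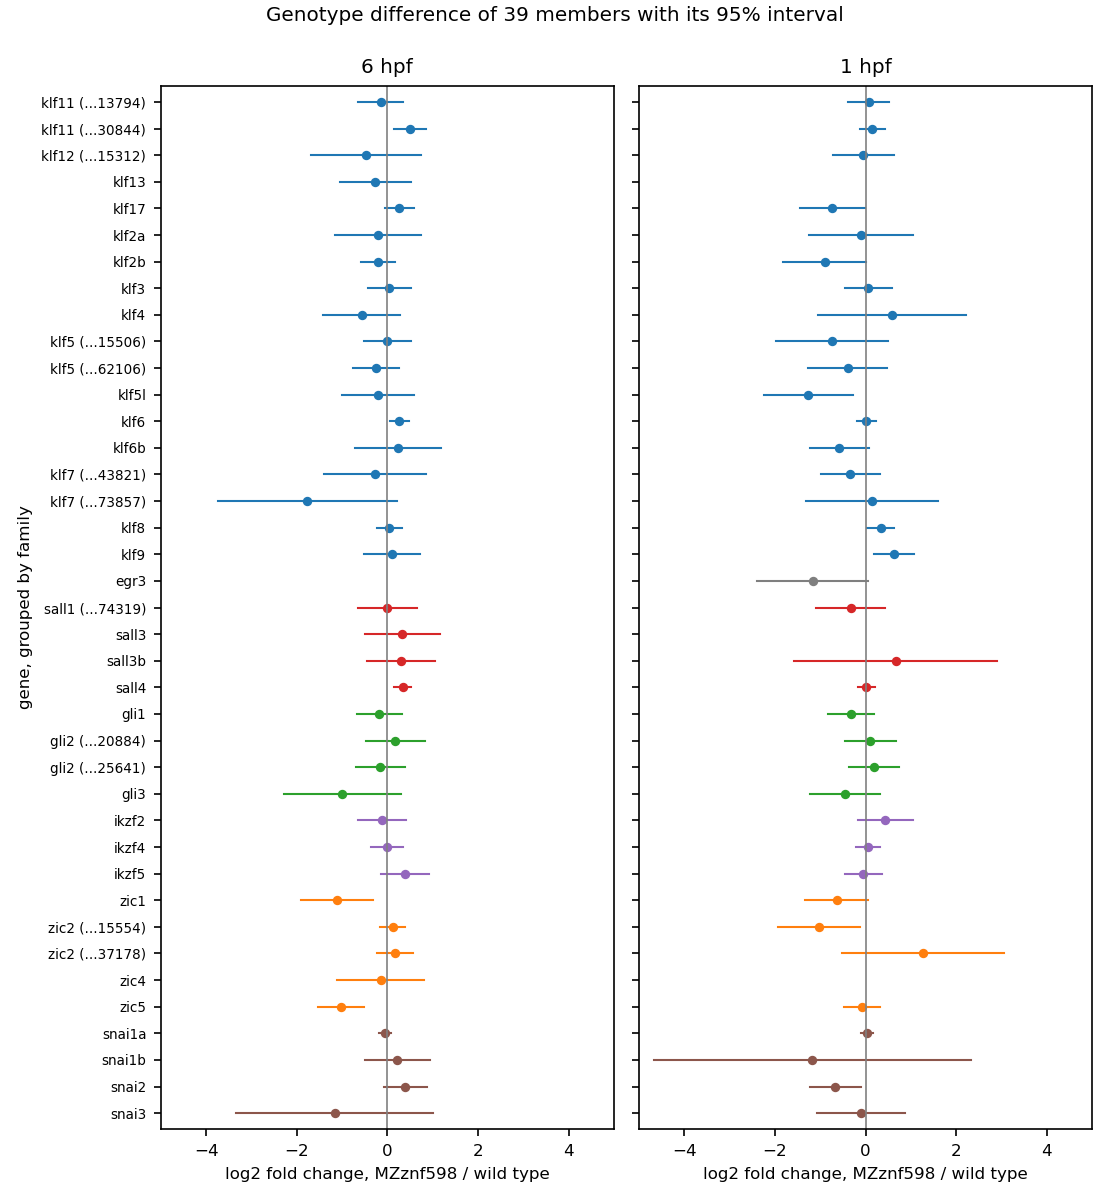
Log2 fold change of MZznf598 over wild type for 39 members at 6 hpf (left) and 1 hpf (right), with its 95% interval as a bar. Genes with both groups at 3 counts or fewer in every library are left blank. Most points gather around 0. At 6 hpf klf7 (ENSDARG00000073857), snai3, zic1 and zic5 lie farthest to the left and klf11 (ENSDARG00000030844) farthest to the right. Intervals widen for genes with few counts.

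The precision of these values differed between members. At 6 hpf the 95% interval of the genotype difference lay within 2-fold in either direction for 25 of the 40 members (62.5%, against 65.2% of all genes tested), and reached beyond it for 15. At 1 hpf it lay within 2-fold for 15 (37.5%, against 65.8% of all genes). The median standard error over the members was 0.25 on the log2 scale at 6 hpf and 0.32 at 1 hpf. Genes with a wide interval, such as klf7 (ENSDARG00000073857, -3.73 to 0.20 at 6 hpf), allow a large difference that was not detectable at this depth.

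At 1 hpf, when differences would lie in what the mother supplied, 0 members were higher and 0 lower in MZznf598, where 1.60% and 2.23% of all genes tested were called (3.83% together). DESeq2 also called 0 members, with 3.02% of all genes higher and 3.64% lower, as did edgeR at an adjusted p below 0.05, with 3.55% and 4.22%. At an unadjusted p below 0.05, 2 were higher and 4 lower, where 9.04% of all genes were higher and 10.1% lower. The median over the members was -0.09 (0.00 over all genes), and the libraries of the 2 genotypes did not overlap in 5 members (12.5%, 3 above and 2 below), against 25.8% of all genes (12.9% above and 12.9% below). Klf9 (ENSDARG00000068194), a gene induced by glucocorticoid and thyroid hormones, was at 23.8, 23.3 and 25.3 CPM in MZznf598 and 15.03, 18.4 and 13.5 CPM in wild type, a log2 fold change of 0.62 (SE 0.20, adjusted p = 0.0948). Klf8 (ENSDARG00000060661), at 21.0, 21.3 and 22.3 CPM in MZznf598 and 20.1, 15.8 and 15.3 CPM in wild type, had one of 0.33 (SE 0.14, adjusted p = 0.186). In both, the 3 MZznf598 libraries were above the 3 wild-type libraries.

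The 3 members with the lowest p on the other side were low or moderate in level. Klf5l (ENSDARG00000018757) was at 0.934, 1.05 and 0.882 CPM in MZznf598 and 3.02, 3.24 and 0.571 CPM in wild type (-1.27, SE 0.45, adjusted p = 0.127). Snai2, with values given above, had a difference of -0.67 (SE 0.26, adjusted p = 0.163). The zic2 gene ENSDARG00000015554, at 0.287, 0.489 and 0.160 CPM in MZznf598 and 0.460, 1.01 and 0.490 CPM in wild type, had one of -1.02 (SE 0.42, adjusted p = 0.191). For klf5l and snai2 the third wild-type library lay at or near the MZznf598 values, while the other 2 wild-type libraries were well above them.

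Without both wild-type libraries numbered 3, 5 members were called lower and 0 higher in MZznf598 at 1 hpf, where 5.74% of all genes were called lower and 6.38% higher. They were snai2 (-0.90, adjusted p = 2.00e-05), klf5l (-1.70, adjusted p = 0.000239), klf17 (-1.05, adjusted p = 0.00321), klf7 (ENSDARG00000043821, -0.56, adjusted p = 0.00715) and klf2b (-1.22, adjusted p = 0.00812). In all 5 the genotypes overlap when the third wild-type library is kept. At 1 hpf, klf17 was at 0.838 to 1.28 CPM in MZznf598 and at 2.36 and 1.82 CPM in the first 2 wild-type libraries, and klf2b at 0.503 to 0.908 CPM in MZznf598 and at 1.90 and 1.22 CPM in those wild-type libraries.

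**Figure D4:**
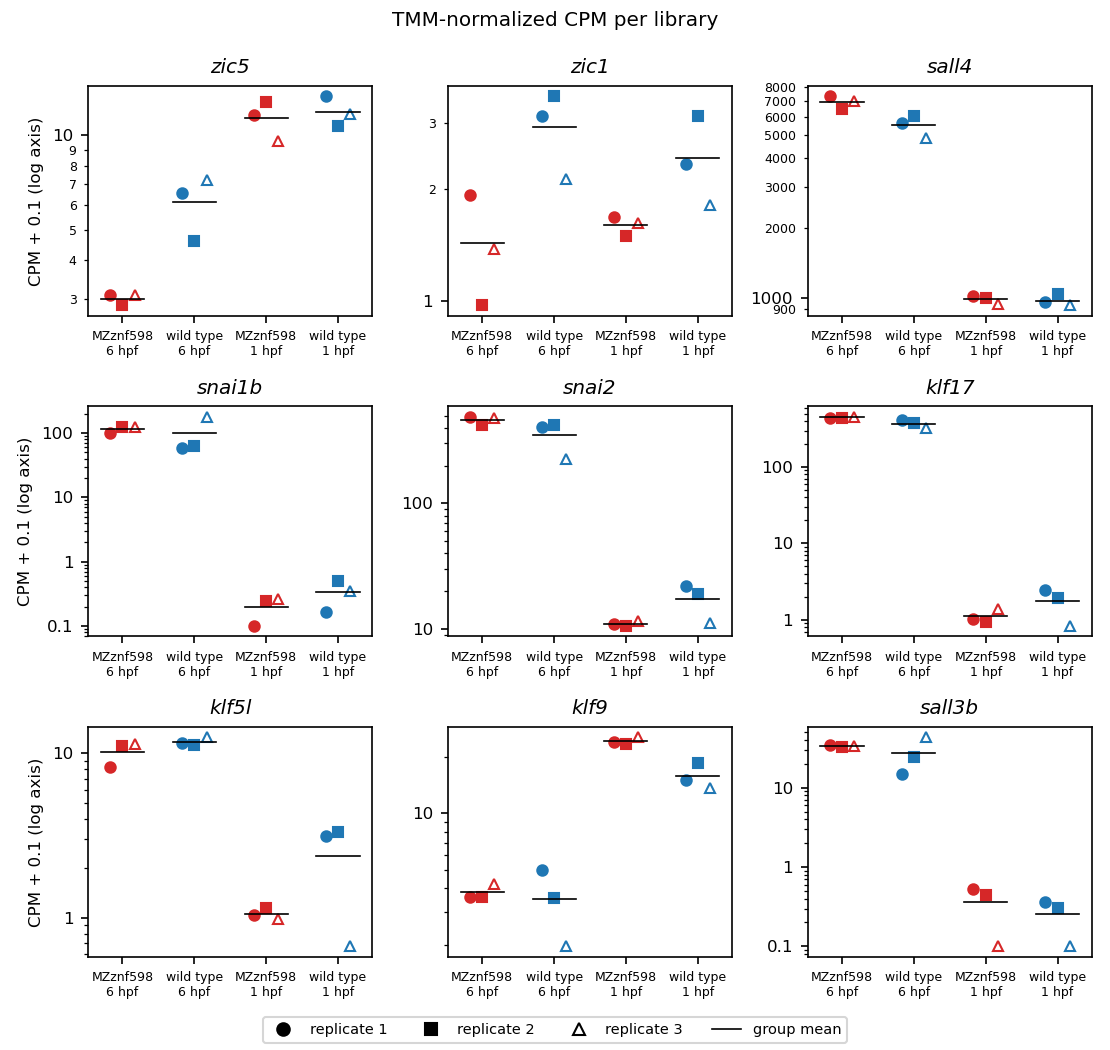
TMM-normalized CPM plus 0.1, on log axes, for 9 members in each library, with MZznf598 (red) left of wild type (blue) at each stage, replicate 3 as an open triangle and the group mean as a line. The third wild-type library is the lowest for snai2 at both stages and for klf5l and klf17 at 1 hpf, and the highest for snai1b and sall3b at 6 hpf. For zic5, zic1, sall4 and klf17 the genotypes separate at 6 hpf, and for zic1 and klf9 they separate at 1 hpf. In these separations the third wild-type library is the highest of its group for zic5 and the lowest for the other genes.

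Whether the 2 genotypes differed in their change across the MZT was tested as an interaction, in which the log2 fold change by genotype at 1 hpf is subtracted from that at 6 hpf. Of the 40 members, 0 were positive and 0 negative, where 0.284% and 0.164% of all genes tested were called (0.449% together). DESeq2 called 0 members, with 0.998% and 0.764% of all genes, and edgeR at an adjusted p below 0.05 also 0, with 0.727% and 0.575%. At an unadjusted p below 0.05, 6 were positive and 1 negative, where 5.65% of all genes were positive and 5.38% negative. Snai2 had an interaction of 1.06 (SE 0.34, adjusted p = 0.196). With replicate number as a block within genotype, its interaction passed (1.05, adjusted p = 0.00586), where 0.145% of all genes were called positive and 0.0632% negative. Zic5 had one of -0.96 (SE 0.30, adjusted p = 0.179), klf17 one of 1.00 (SE 0.36, adjusted p = 0.271) and sall4 one of 0.32 (SE 0.12, adjusted p = 0.306).

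Without both wild-type libraries numbered 3, the interaction was positive for snai2 (1.06, adjusted p = 0.000128), klf17 (1.24, adjusted p = 0.00409) and klf5l (1.54, adjusted p = 0.00872) and negative for none, where 1.43% of all genes were positive and 1.78% negative. These 3 genes had lower 1 hpf values in MZznf598 than in the 2 remaining wild-type libraries, and rose in both genotypes.

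Genes that work with these families were counted as lists. Over all genes tested, 3.51% were called between the genotypes at 6 hpf and 3.83% at 1 hpf. With lists this short, 0 calls say little about their genes. Across the MZT, 70.0% of all genes were called in MZznf598 and 70.4% in wild type. The Sp factors, the closest relatives of the klf genes, had 9 genes tested, with 0 called between the genotypes at either stage, and across the MZT 5 rose and 2 fell in MZznf598 and 6 rose and 1 fell in wild type. Among them sp5 and sp5l, Wnt targets in zebrafish, rose at least 408-fold and 865-fold in MZznf598 and at least 308-fold and 737-fold in wild type, and sp3 (ENSDARG00000001549) rose by 1.23 in MZznf598 and 1.32 in wild type on the log2 scale. Subunits of the NuRD repressor complex, which binds Sall and Ikaros proteins in mammals, had 11 genes tested, with 0 called between the genotypes and 9 rising and 2 falling across the MZT in each. Those with the lowest p were hdac1 (1.55 in MZznf598 and 1.60 in wild type), chd4b (2.03 in MZznf598 and 1.96 in wild type) and mbd3b (1.84 in MZznf598 and 1.88 in wild type).

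In the Hedgehog list, 1 gene was called between the genotypes at 1 hpf, where 3.83% of all genes tested were. It was higher in MZznf598, the gas1 gene ENSDARG00000067984, at 18.9, 15.3 and 26.2 CPM in MZznf598 and 11.1, 8.99 and 3.999 CPM in wild type (log2 fold change 1.30, SE 0.27, adjusted p = 0.0088). Its adjusted p stayed under 0.05 with all but 1 of the alternatives but lay above 0.01 in most of them, reaching 0.0975 with only the 6 libraries compared. In the list of Egr cofactors and immediate early genes, with 6 genes tested, 1 was lower, nab2 (ENSDARG00000078076), a corepressor that binds Egr proteins. It was at 0.0718, 0.0698 and 0 CPM in MZznf598 and at 5.32, 8.65 and 0.979 CPM in wild type at 1 hpf, at least 20.7-fold lower (adjusted p = 0.000616), and at 6 hpf at 1.497, 1.60 and 2.28 CPM in MZznf598 and 3.56, 2.38 and 3.72 CPM in wild type (adjusted p = 0.498). Without both wild-type libraries numbered 3 its adjusted p at 1 hpf was 3.43e-07, and with only the 6 libraries compared it was 0.0175. In the same list ier2a, ier2b and elk4 rose across the MZT in both genotypes.

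Of 5 oocyte and egg markers (zar1, buc, zp3b, h1m and bmp15), all fell across the MZT in both genotypes. Their summed level at 6 hpf was 479 to 559.6 CPM in MZznf598 and 329 to 679.98 CPM in wild type, and at 1 hpf 2361 to 2558 CPM in MZznf598 and 2171 to 3132 CPM in wild type. Of all genes tested, 33.7% fell across the MZT in MZznf598 and 33.9% in wild type. Between the genotypes, 3.51% of all genes were called at 6 hpf and 2.23% were lower at 1 hpf. Of the markers, 0 were called at 6 hpf and 1 was lower in MZznf598 at 1 hpf, zar1 (ENSDARG00000019706), a maternal-effect gene of the egg-to-embryo transition. It was at 44.2, 43.0 and 47.1 CPM in MZznf598 and 93.4, 86.0 and 62.7 CPM in wild type (log2 fold change -0.85, SE 0.17, adjusted p = 0.00808). The call was lost without any single MZznf598 library and without wild-type replicate 1 or 2 at 1 hpf or replicate 2 at 6 hpf (adjusted p 0.0136 to 0.0408). It was also lost with only the 6 libraries compared (edgeR adjusted p = 0.0191) and with a replicate block within stage (edgeR adjusted p = 0.0289). Without both wild-type libraries numbered 3 the edgeR adjusted p was 5.61e-07. The part of these markers in the values of the members at 1 hpf was not tested.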

How the data were processed

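The authors depleted ribosomal RNA from total RNA of pooled embryos, sequenced stranded single-end libraries, aligned reads to GRCz11 with STAR (version 2.7.8a, per the submitters' processing notes), kept uniquely mapped reads with at most 1 mismatch and deposited read counts per Ensembl gene made with featureCounts. Near-identical paralogs lose reads under this rule, and the strand setting of the counting was not given in the sources used here.

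The analysis of the counts used edgeR 4.0.16 under R 4.3.3, with DESeq2 1.42.0 as an alternative. A gene was tested when 3 or more of the 12 libraries exceeded 1 CPM (15829 of 25432 genes). One robust quasi-likelihood model with 4 group means and TMM scaling was fitted to all 12 libraries (8 residual degrees of freedom). Tests were 2-sided, adjusted by Benjamini-Hochberg over all genes, and called at an adjusted p below 0.01. The standard error is the absolute log2 fold change over the square root of F. A group with 3 counts or fewer in every library was set to 3 counts in its shallowest library (0.241 to 0.507 CPM), and the fold given as a bound, which covers counting error only. Symbols, from a table matched by gene identifier, covered 23608 genes. The fit was tested on simulated data. These had the same spread set for every gene, no library that stood apart and no pairing of replicate numbers. The test therefore does not cover those features of the real libraries.

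Values per library were given for the 5 members with the lowest p in each genotype comparison and the 2 with the lowest p in the wild-type change of each family (all in families of up to 4), and for related genes called between genotypes or among the 3 lowest p of the wild-type change. The members and lists were chosen with earlier results of these data known. Replicate numbers paired the stages within a genotype (correlations of deviations from the group mean 0.170 to 0.237 in 6 pairs, against -0.185 to 0.0642 for other numbers). The main model held no term for this pairing, so its stage and interaction tests ignore it. The fit with replicate number as a block within genotype takes it into account. One member is counted in the totals but not reported here. No sequence is printed, as none was given.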

Additional observations from a re-analysis of the deposited data

How the results depend on the processing

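The counts of members that rose or fell between the stages stayed within 1.5 times under every alternative run (RLE factors, no level filter, a limit of 2 CPM, DESeq2, an adjusted p below 0.05, only the 6 libraries compared, replicate blocks, each library left out, and both wild-type libraries numbered 3 left out), and no result reversed. Between genotypes, DESeq2 and an adjusted p below 0.05 each called 2 members higher and 1 lower at 6 hpf, sall4 and zic5 among them under both. Over all genes, DESeq2 called 3.80% higher and 3.22% lower, and an adjusted p below 0.05 called 4.29% and 4.09%. Leaving out 1 library at a time gave 0 to 1 higher at 6 hpf (snai1b without wild-type 6 hpf replicate 3, adjusted p = 0.00328), 0 to 1 lower at 6 hpf (zic5 without wild-type 6 hpf replicate 2, adjusted p = 0.00986) and 0 to 1 lower at 1 hpf (klf5l without wild-type 1 hpf replicate 3, adjusted p = 0.000638). Over all genes, these 3 settings called 2.51% higher at 6 hpf, 1.04% lower at 6 hpf and 3.10% lower at 1 hpf, within ranges over the 12 libraries of 0.802% to 2.55%, 0.764% to 3.07% and 1.06% to 3.10%. Without both wild-type libraries numbered 3, 3 members were higher at 6 hpf, 5 lower at 1 hpf and 3 positive in the interaction. Over all genes, that setting called 5.60% higher at 6 hpf, 5.74% lower at 1 hpf and 1.43% positive. The replicate block within genotype called 1 interaction (snai2, positive, where 0.145% of all genes were positive and 0.0632% negative). Numbers did not pair the genotypes within a stage (correlations -0.151 to 0.101), and the replicate block within stage called 0 members. The block changed no other call than those of snai2, klf6 and gli2 (ENSDARG00000020884, lower in both genotypes under the block). Calls of gli2 (ENSDARG00000025641) in MZznf598 were lost without MZznf598 replicate 1 at 6 hpf or MZznf598 replicate 1 or 2 at 1 hpf (adjusted p 0.0109 to 0.0175). The cause of these shifts was not tested. Members with few counts at 1 hpf limit what can be seen there.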
